A study of Mus musculus with 4 samples.

Results

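The C/EBP transcription factor genes Cebpa, Cebpb, Cebpd, Cebpe and Cebpg, the similarly named Cebpz, and the gene for PU.1 were taken by symbol from the deposited table, which lists PU.1 under its older symbol Sfpi1 (now Spi1). All 7 genes were found among the 20207 in the table. The cells were LSK cells (no lineage markers, with Sca-1 and Kit on the surface), a fraction of blood stem cells and multipotent progenitors sorted from the livers of mouse embryos at E14.5. A Brpf1-null group was set against a wild-type group, with 2 samples in each and cells of 4 embryos pooled per sample. Brpf1 encodes a chromatin reader that assembles histone acetyltransferase complexes. The labels give neither the strain, the Brpf1 allele nor any Cre driver. The tables of the 2 pairs of samples held the same values for every gene, so each genotype had 1 set of values, treated as 1 library, and no spread between replicates, and no test of a difference was made. Whether these values come from pair 1, pair 2 or a merge of both could not be worked out, so a value may stand for 1 pool of embryos or for both.

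C/EBP proteins are basic leucine zipper (bZIP) factors that bind DNA as dimers, and PU.1 is an ETS-domain factor. In blood formation, C/EBPα carries progenitors into the granulocyte and monocyte lineages, C/EBPβ acts in macrophages and in emergency granulopoiesis, and C/EBPε acts late, when secondary granules form. PU.1 is needed for both myeloid and lymphoid development, cooperates with C/EBPα at myeloid genes and antagonizes the erythroid factor GATA1. C/EBPα and C/EBPβ are also abundant in hepatocytes, and PU.1 in macrophages and B cells.

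Promoter sequences are shown for the 3 members matched in the RefSeq promoter table used here (build GRCm38.p6), which are also the bZIP members abundant enough to be counted below. Each runs 5′ to 3′ along the gene, from 250 bases before the annotated start to 50 after it. The Cebpa promoter lies at chr7:35119043-35119342 on the plus strand, the Cebpb promoter at chr2:167688665-167688964 on the plus strand, and the Cebpg promoter at chr7:35056517-35056816 on the minus strand. Capitals mark exact matches, on either strand, to TTGCG for a C/EBP half-site, GAGGAA for a PU.1 core, CCAAT for the CCAAT box, GGGCGG for the GC box, TATAAA for the TATA box and TGACG for a CRE half-site.
Cebpa: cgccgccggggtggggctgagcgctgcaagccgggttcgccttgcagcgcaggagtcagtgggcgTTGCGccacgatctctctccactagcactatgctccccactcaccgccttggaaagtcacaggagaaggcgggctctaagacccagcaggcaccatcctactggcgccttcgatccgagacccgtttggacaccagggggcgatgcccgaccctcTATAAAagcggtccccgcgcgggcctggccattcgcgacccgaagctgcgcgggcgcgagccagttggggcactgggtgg
Cebpb: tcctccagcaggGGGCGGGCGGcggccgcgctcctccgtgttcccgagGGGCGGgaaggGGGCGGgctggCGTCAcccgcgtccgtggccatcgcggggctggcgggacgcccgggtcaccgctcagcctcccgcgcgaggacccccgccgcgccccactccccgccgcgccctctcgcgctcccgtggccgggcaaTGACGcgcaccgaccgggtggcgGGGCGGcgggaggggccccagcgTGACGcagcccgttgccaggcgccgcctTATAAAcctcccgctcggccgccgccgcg
Cebpg: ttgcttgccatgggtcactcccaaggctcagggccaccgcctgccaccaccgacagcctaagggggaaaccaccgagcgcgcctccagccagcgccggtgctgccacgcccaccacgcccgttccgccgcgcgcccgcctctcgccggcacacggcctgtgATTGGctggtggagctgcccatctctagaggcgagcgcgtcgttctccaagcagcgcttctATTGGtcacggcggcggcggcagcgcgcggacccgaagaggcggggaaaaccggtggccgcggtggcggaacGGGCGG

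The 3 promoters differed in the elements they held. Cebpa had 1 C/EBP half-site, with its first base at position -185 from the start, and 1 TATA box at -30. Cebpb had 5 GC boxes, the first and second of which overlap, 3 CRE half-sites and 1 TATA box match at 22, after the annotated start. Cebpg had 2 CCAAT boxes on the reverse strand, at -89 and -28, 1 GC box at 45, after the start, and no TATAAA in this window. No GAGGAA was found in any of the 3 windows. Among 32851 RefSeq mouse promoters of the same length, 17.4% held the C/EBP half-site, 28.3% the PU.1 core, 37.4% the CCAAT box, 35.7% the GC box, 13.6% the TATA box and 20.8% the CRE half-site. The GC content was 67.3% for Cebpa, 80.7% for Cebpb and 71.7% for Cebpg, against a median of 52.7%. These matches describe letters and not bound sites. Cebpa and Cebpg lie side by side on chromosome 7 with no other protein-coding gene annotated between them.

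Cebpa and Cebpb were higher in the Brpf1-null library, PU.1 was lower, and Cebpg and Cebpz were nearly level. Levels are in RPKM, read counts scaled by gene length and library size. Comparisons of levels between genes are rough, since the libraries were oligo-dT-primed and the annotation behind the gene lengths is not given. Depth was recovered as about 22200000 reads for the Brpf1-null and 23600000 reads for the wild-type library, and a fold is followed by its exact 95% Clopper-Pearson interval, which reflects the number of reads alone and says nothing of how embryo pools vary. Brpf1 itself was at 2.15 RPKM in the Brpf1-null library and 2.59 RPKM in the wild-type library, 0.833 times as high (0.699 to 0.993). This is a weak check of the labels, since the allele is not given and reads from exons outside any deletion would still count. Log2 differences have a pseudocount of 1 RPKM added to each level, and counts of genes past 1.5-fold on that scale cover those averaging 1 RPKM or more over both libraries, called kept genes. Of the 7 members, 5 were kept, and Cebpd and Cebpe fell under the minimum. Of those 5, 2 were at least 1.5-fold higher in the Brpf1-null library, where 14.1% of all 9380 kept genes were, and 1 was at least 1.5-fold lower, where 9.42% of them were. Higher genes made up 59.9% of all kept genes past 1.5-fold, 52.3% after quantile normalization and 44.4% after median centring. Median centring left the median log2 difference of the kept genes at -0.07. The median log2 difference was -0.01 over the 5 members and 0.04 over all kept genes.

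Cebpa, the granulocyte and monocyte specification factor, was at 6.36 RPKM in the Brpf1-null library (about 371 reads) and at 1.75 RPKM in the wild-type library (about 108 reads). The 2 counting intervals of its level, 5.73 to 7.04 RPKM and 1.43 to 2.10 RPKM, did not overlap. The ratio was 3.64-fold higher (2.94 to 4.57), a log2 difference of 1.42 that ranked 86th highest among the 9380 kept genes. Cebpb, a macrophage and stress-response member of the family, was at 2.36 RPKM in the Brpf1-null library (79 reads) and at 0.871 RPKM in the wild-type library (31 reads). It was the only other kept member on the higher side of 1.5-fold. Its ratio was 2.71-fold (1.77 to 4.25), and its log2 difference of 0.85 ranked 607th highest. The Cebpb transcript has a GC content of 67.2% and that of Cebpa 62.6%, and genes of high GC content were higher in the Brpf1-null library in general (Spearman rho of 0.29 across 9258 genes, which are not independent replicates). After that trend was removed, Cebpa had a log2 difference of 1.16 and Cebpb one of 0.56, just under 1.5-fold.

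**Figure D1:**
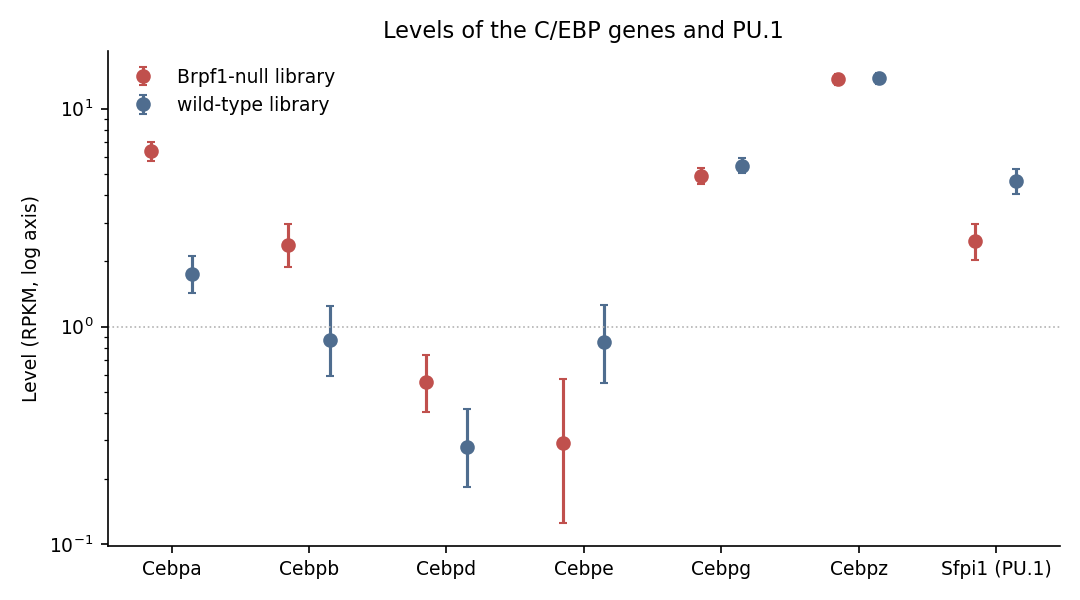
Levels of the 6 C/EBP genes and PU.1 (Sfpi1) in RPKM on a log axis, in the Brpf1-null library (red, left of each pair) and the wild-type library (blue, right), with 95% counting intervals as bars and a dotted line at 1 RPKM. Cebpa stands at 6.36 RPKM in the Brpf1-null and 1.75 RPKM in the wild-type library, PU.1 at 2.46 and 4.63 RPKM in the same order, and Cebpz at the same height in both.

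Cebpd and Cebpe were scarce in both libraries. Cebpd, an acute-phase member, was at 0.557 RPKM in the Brpf1-null library (about 46 reads) and at 0.281 RPKM in the wild-type library (about 25 reads), 1.99-fold higher (1.18 to 3.33). Cebpe, the factor of late granulocyte maturation, went the other way, at 0.291 RPKM in the Brpf1-null library (8 reads) and 0.854 RPKM in the wild-type library (25 reads), 2.94-fold lower (1.28 to 7.53). Its log2 difference was only -0.52, because a pseudocount of 1 RPKM shrinks the change of so low a gene.

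Cebpg, a short member that lacks the activation domain of its relatives and pairs with other bZIP proteins, was at 4.91 RPKM in the Brpf1-null library and 5.48 RPKM in the wild-type library, a ratio of 0.897 with an interval from 0.796 to 1.01 that includes 1. Its neighbour Cebpa was 3.64-fold higher. Cebpz is not a bZIP factor despite its name: its product is the mammalian counterpart of the yeast ribosome assembly factor Noc1. It was the most abundant member in both libraries, at 13.6 RPKM in the Brpf1-null and 13.8 RPKM in the wild-type library, and its log2 difference of -0.01 turned to 0.08 after removal of the GC trend.

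PU.1 (Sfpi1) was at 2.46 RPKM in the Brpf1-null library (about 111 reads) and at 4.63 RPKM in the wild-type library (about 223 reads). The counting intervals of the level ran from 2.02 to 2.96 RPKM and from 4.05 to 5.29 RPKM and did not overlap. PU.1 was 1.88-fold lower (1.497 to 2.39), with a log2 difference of -0.70 that ranked 647th lowest among the kept genes. In bulk RNA, fewer cells that express a gene and less of its RNA per cell cannot be told apart. Of the closest relatives of PU.1, Spic, an ETS factor of red pulp and fetal liver macrophages, was at 0.676 RPKM in the Brpf1-null and 2.64 RPKM in the wild-type library, 3.91-fold lower (2.57 to 6.35). Spib, a lymphoid and plasmacytoid dendritic cell factor, was too low to be kept, at 0.339 and 0.637 RPKM in the same order (named after its value was seen). Genes on the opposite strand overlap 5 of the 7 members in GENCODE M21, all except Cebpe and PU.1. On the same strand, 2 genes overlap Cebpg. The sources used here do not say whether reads were counted by strand. Reads of such partners therefore cannot be told apart from those of the members.

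**Figure D2:**
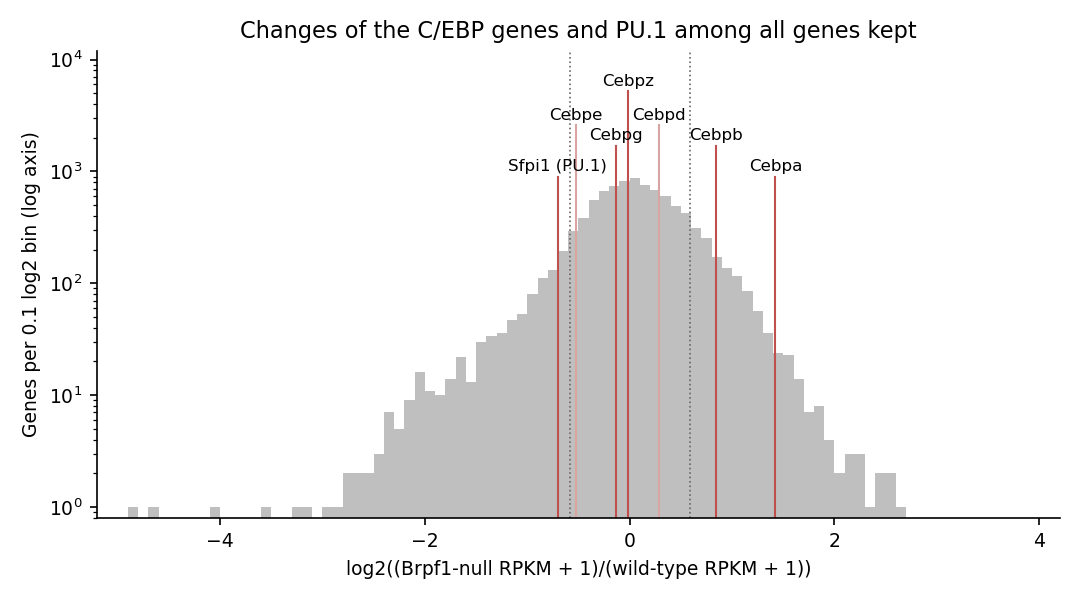
Histogram of log2 differences, Brpf1-null over wild-type with 1 RPKM added to each, over the 9380 kept genes (bins of 0.1, log axis), with each member marked by a vertical line, paler for Cebpd and Cebpe, which were not kept. Dotted lines stand at 1.5-fold, and Cebpa at 1.42 and PU.1 at -0.70 lie on opposite sides of them.

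The order of the members by level, a rough comparison between genes, changed between the libraries. From high to low the Brpf1-null order was Cebpz, Cebpa, Cebpg, PU.1, Cebpb, Cebpd and Cebpe, with overlapping counting intervals for PU.1 and Cebpb and for Cebpd and Cebpe. The wild-type order was Cebpz, Cebpg, PU.1, Cebpa, Cebpb, Cebpe and Cebpd, with overlapping intervals for Cebpg and PU.1 and for Cebpb and Cebpe. The 5 bZIP genes summed to 14.48 RPKM in the Brpf1-null library and 9.23 RPKM in the wild-type library. Cebpa made up 43.9% of that sum in the Brpf1-null library and 18.9% in the wild-type library, and Cebpg 33.9% and 59.3% in the same order. Cebpb contributed 16.3% and 9.44%, and Cebpe 2.01% and 9.25%. Within a library, the level of Cebpa was 2.58 times that of PU.1 in the Brpf1-null cells and 0.377 times that of PU.1 in the wild-type cells.

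**Figure D3:**
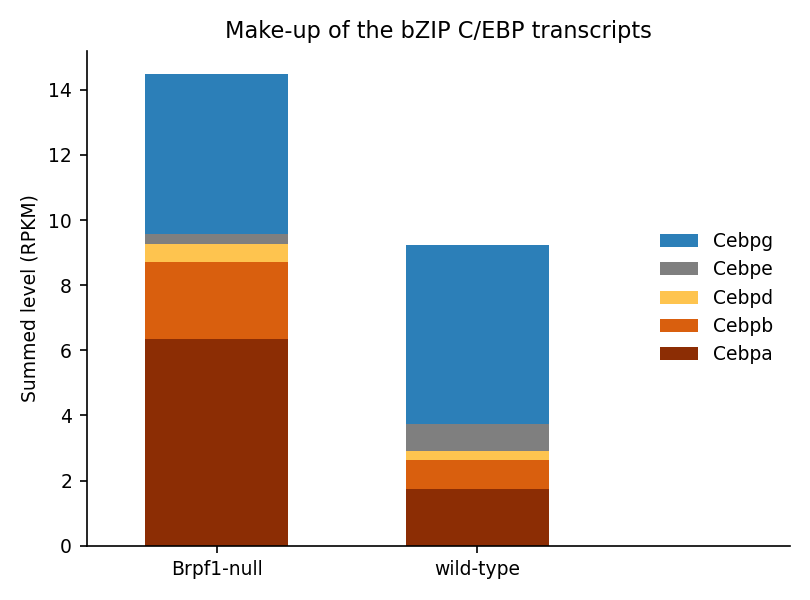
Levels of the 5 bZIP C/EBP genes stacked to their sum in RPKM, for the Brpf1-null library (left) and the wild-type library (right). The sum is 14.48 RPKM in the Brpf1-null library, led by Cebpa, and 9.23 RPKM in the wild-type library, led by Cebpg.

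Markers of other cells also differed between the libraries, and their part in the differences of the members was not tested. Among all 9380 kept genes, 14.1% were at least 1.5-fold higher in the Brpf1-null library and 9.42% at least 1.5-fold lower. Hepatocyte genes, from a cell type that expresses Cebpa and Cebpb, were at least 1.5-fold lower in all 15 kept genes of 16. Their summed level was 575 RPKM in the Brpf1-null library and 2191 RPKM in the wild-type library. Among them Apoh was 6.10-fold lower (4.97 to 7.59) and Serpina1a, which shares sequence with its paralogs, 6.09-fold lower (5.19 to 7.21). Fetal liver macrophage markers, from cells rich in PU.1 and Spic, were at least 1.5-fold lower in 5 of 7 kept genes. Spic, described above, is itself among these 5. The sums of this list were 25.5 RPKM in the Brpf1-null and 47.7 RPKM in the wild-type library. B-lineage markers, from another cell type that uses PU.1, were lower in all 8 kept genes of 9 in the table, with sums of 82.0 and 272 RPKM in the same order, and Pax5 was listed at 0 in both. Erythroid markers were lower in all 10 genes found in the table, with sums of 107 RPKM in the Brpf1-null and 667 RPKM in the wild-type library. Monocyte and dendritic cell markers were higher in 6 of 8 kept genes and lower in 0, with sums of 183 RPKM in the Brpf1-null and 74.2 RPKM in the wild-type library. Of the 8 mast cell and basophil markers, 4 were listed at 0 in both libraries, namely Gzmb, Fcer1a, Cma1 and Tpsb2, and the sums were 5.0 and 6.79 RPKM in the same order. The 2 kept genes went opposite ways, with Prss34 5.45-fold higher (3.17 to 9.99) and Cpa3 2.64-fold lower (1.98 to 3.60). Of the genes behind the sort, Kit was at 21.3 RPKM in the Brpf1-null and 25.6 RPKM in the wild-type library. Ly6a, which encodes Sca-1, was at 9.51 and 10.6 RPKM in the same order. Cd34 and Flt3, listed with them, went the other way. Cd34 was at 179 RPKM in the Brpf1-null and 117 RPKM in the wild-type library, 1.54-fold higher (1.49 to 1.58). Flt3 was at 33.1 and 22.9 RPKM in the same order, 1.45-fold higher (1.37 to 1.54).

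Genes linked to C/EBPα in granulocyte and monocyte progenitors, which here are granule protein genes, receptors and other progenitor genes, went both ways. All 10 were kept, with 2 at least 1.5-fold higher, 2 at least 1.5-fold lower and 6 between. Among all kept genes 14.1% were higher and 9.42% lower by that measure. The list had a median log2 difference of 0.51, and a pseudocount of 0.1 RPKM put 4 on the higher side. Mpo, the myeloperoxidase of primary granules, was at 570 RPKM in the Brpf1-null library and 351 RPKM in the wild-type library, 1.62-fold higher (1.60 to 1.65). Il6ra, the interleukin-6 receptor chain and a known target of C/EBPα, was at 2.40 RPKM in the Brpf1-null and 0.582 RPKM in the wild-type library, 4.12-fold higher (3.36 to 5.08). Prtn3, a granule protease gene, was at 213 and 144 RPKM in the same order and lay just within 1.5-fold. The other direction was taken by Ela2 (neutrophil elastase, now Elane), at 42.6 RPKM in the Brpf1-null and 101 RPKM in the wild-type library, and by Fcnb, which encodes the granule lectin ficolin B, 2.60-fold lower (2.00 to 3.43). Csf3r, the receptor for the granulocyte growth factor G-CSF and another C/EBPα target, was at 13.6 RPKM in the Brpf1-null and 9.54 RPKM in the wild-type library (named after its value was seen).

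The later granule list, in which many genes need C/EBPε and some encode neutrophil cytosol proteins, was mostly lower. Cebpe was lower too, on 8 Brpf1-null and 25 wild-type reads, and was not kept. Of 7 kept genes among 11, 5 were at least 1.5-fold lower and 0 higher (all kept genes: 9.42% lower, 14.1% higher). The median log2 difference was -1.31. S100a8, a calprotectin subunit of neutrophil cytosol, was at 21.4 RPKM in Brpf1-null cells and 75.6 RPKM in wild-type cells, and S100a9, the other subunit, at 18.9 and 48.5 RPKM in the same order. Ngp, a secondary granule protein gene, was 3.03-fold lower (2.60 to 3.57), Camp, the cathelicidin gene, 2.57-fold lower (2.01 to 3.28) and Lcn2, the siderophore-binding lipocalin, 5.89-fold lower (3.13 to 11.7). The remaining 2 kept genes lay within 1.5-fold, both named after their values were seen. Ltf (lactoferrin) was at 2.61 RPKM in the Brpf1-null and 1.77 RPKM in the wild-type library, 1.47-fold higher (1.15 to 1.89). Lyz2 (lysozyme) was at 106 and 104 RPKM in the same order. Mmp8, Cd177 and Chi3l3 were listed at 0 in the Brpf1-null library, and none of them reached 1 RPKM in the wild-type library. Mmp9, a gelatinase gene, went the other way, at 0.115 RPKM in the Brpf1-null library (8 reads) and listed at 0 in the wild-type library.

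Genes known to be bound or activated by PU.1 in myeloid cells were mostly higher, opposite to PU.1 itself. Of 30 kept genes among 34, 17 were at least 1.5-fold higher, 2 at least 1.5-fold lower and 11 between. The shares over all kept genes were 14.1% higher and 9.42% lower. The median log2 difference of the list was 0.72. Csf1r, the macrophage colony-stimulating factor receptor and a classic PU.1 target, was at 28.8 RPKM in the Brpf1-null library and 8.31 RPKM in the wild-type library, 3.47-fold higher (3.22 to 3.74). Cybb, the catalytic subunit of the phagocyte oxidase, was at 7.43 RPKM in the Brpf1-null and 1.94 RPKM in the wild-type library, 3.83-fold higher (3.29 to 4.47). Csf2rb, the shared beta chain of the GM-CSF and interleukin-3 receptors, was 3.03-fold higher (2.82 to 3.26), though it has a close paralog with which reads could be shared. The 2 lower genes were Il7r, the interleukin-7 receptor chain of lymphoid progenitors, at 1.85 RPKM in the Brpf1-null and 8.53 RPKM in the wild-type library, and Btk, a kinase of B-cell receptor signalling, at 5.68 and 12.3 RPKM in the same order (Btk named after its value was seen). Msr1, a macrophage scavenger receptor gene just under the minimum level, was at 0.296 RPKM in the Brpf1-null and 1.56 RPKM in the wild-type library, 5.25-fold lower (3.38 to 8.47), and was also named after its value was seen. Monocyte and dendritic cell markers, 3 of which stand in both lists, were higher in the same library.

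**Figure D4:**
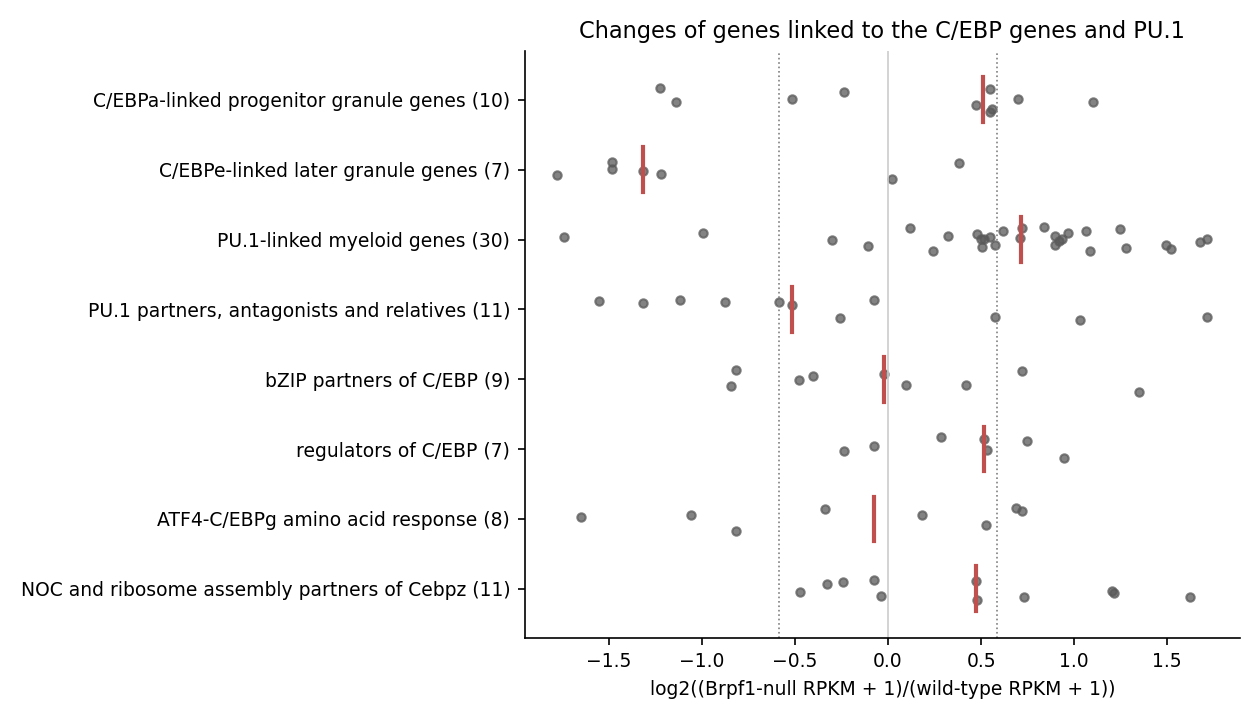
Log2 difference, Brpf1-null over wild-type with 1 RPKM added to each, of each kept gene in 8 lists of genes linked to the C/EBP genes and PU.1, with the number of kept genes in brackets. Points are genes (spread vertically for sight only), red bars list medians and dotted lines 1.5-fold. The later granule genes have a median of -1.31 and the PU.1-linked myeloid genes one of 0.72.

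Among factors that work with or against PU.1, more were lower than higher. Of 11 kept genes among 16, 2 were at least 1.5-fold higher, 5 lower and 4 between (all kept genes: 14.1% higher, 9.42% lower). The median log2 difference was -0.52. Irf8, a DNA-binding partner of PU.1 during monocyte and dendritic cell formation, stood at 32.6 RPKM in the Brpf1-null library and 9.24 RPKM in the wild-type library, 3.53-fold higher (3.23 to 3.87). Id2, an inhibitor of E proteins, was at 103 RPKM in the Brpf1-null and 50.1 RPKM in the wild-type library. On the erythroid side, Gata1 was at 6.13 RPKM in the Brpf1-null and 16.8 RPKM in the wild-type library, 2.73-fold lower (2.37 to 3.16), and Klf1 at 2.76 and 10.03 RPKM in the same order. PU.1 was lower together with its antagonist Gata1, and the level of PU.1 was 0.402 times that of Gata1 in the Brpf1-null library and 0.276 times in the wild-type library. Set against Gata2, PU.1 went the other way, at 0.510 times its level in the Brpf1-null and 0.777 times in the wild-type library. Gata2 was at 4.83 and 5.96 RPKM in the same order (named after its value was seen). Cebpa was at 1.04 times the level of Gata1 in the Brpf1-null library and 0.104 times in the wild-type library. Erythroid markers, a list that also holds Klf1, were lower in the same library. Spic, counted here among the lower genes, is also on the fetal liver macrophage list. Gfi1b, a transcriptional repressor in erythroid and megakaryocyte cells, was also lower, at 25.2 RPKM in Brpf1-null and 47.1 RPKM in wild-type cells. So was the immediate early factor Egr1, at 2.02 and 3.54 RPKM in the same order (both named after their values were seen).

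The bZIP factors listed as partners of C/EBP proteins went both ways. Whether each of them forms dimers with C/EBP proteins was not tested. Of 9 kept genes among 11, 2 were at least 1.5-fold higher and 2 lower (all kept genes: 14.1% higher, 9.42% lower). The median log2 difference was -0.02, and removal of the GC trend left 4 lower. Batf3, a bZIP factor of dendritic cells, was at 4.11 RPKM in the Brpf1-null library and 1.01 RPKM in the wild-type library, 4.07-fold higher (2.44 to 7.18), and Fos at 42.4 and 25.3 RPKM in the same order. Ddit3 (CHOP), a stress-induced C/EBP relative that blocks DNA binding of its partners, was at 6.15 RPKM in the Brpf1-null and 11.6 RPKM in the wild-type library, 1.89-fold lower (1.51 to 2.35). Hlf, a bZIP factor of stem cells, was 2.03-fold lower (1.81 to 2.28), and Atf4, the main partner of C/EBPγ in the amino acid response, was at 33.3 and 46.7 RPKM in Brpf1-null and wild-type cells, within 1.5-fold.

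Targets of ATF4 and C/EBPγ also went both ways. Of 8 kept genes among 13, 2 were at least 1.5-fold higher and 3 lower (all kept genes: 14.1% higher, 9.42% lower). The lower genes include Ddit3, which is also counted among the bZIP partners above. The median log2 difference was -0.08. Asns, which makes asparagine, was at 22.2 RPKM in the Brpf1-null library and 71.6 RPKM in the wild-type library, 3.23-fold lower (3.01 to 3.47), and Cth, a cysteine synthesis gene, was 4.49-fold lower (2.71 to 8.02). Phgdh and Shmt2, of serine and glycine synthesis, were 1.61-fold (1.57 to 1.66) and 1.66-fold higher (1.57 to 1.75). Median centring left 1 and removal of the GC trend 0 of these genes past 1.5-fold on the higher side.

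Among 11 regulators of C/EBP expression, activity or turnover, 7 were kept, 2 of them at least 1.5-fold higher and 0 lower. Over all kept genes the shares were 14.1% and 9.42%. The median log2 difference of these regulators was 0.52. Fbxw7, a ubiquitin ligase subunit that targets C/EBPα and C/EBPδ, was at 4.12 RPKM in the Brpf1-null library and 1.66 RPKM in the wild-type library, 2.48-fold higher (2.08 to 2.99). Stat3, which acts downstream of G-CSF on Cebpb, had 1947 reads in the Brpf1-null and 1179 reads in the wild-type library and was 1.76-fold higher (1.63 to 1.89). Runx1, an activator of Cebpa and of Sfpi1, was at 4.08 RPKM in the Brpf1-null and 4.35 RPKM in the wild-type library, and Lef1, an activator of CEBPA in human cells, was listed at 0 in the Brpf1-null library and at 0.791 RPKM in the wild-type library. Trib1, which brings C/EBPα to the ligase COP1, was at 0.782 and 0.273 RPKM in Brpf1-null and wild-type cells. Its relatives went the other way, Trib2 at 0.0750 and 0.191 RPKM and Trib3 at 0.373 and 1.28 RPKM in the same order (Runx1, Lef1 and these 3 named after their values were seen). With no filter on low levels 2 regulators were at least 1.5-fold lower, and with a pseudocount of 5 RPKM 0 were higher.

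Ribosome assembly genes that work beside Cebpz were higher in part, while Cebpz was level. Of 12 listed genes, Noc2l was not found and the other 11 were kept. Of these, 4 were at least 1.5-fold higher and 0 lower (all kept genes: 14.1% higher, 9.42% lower). The median log2 difference was 0.47. Ncl (nucleolin) was at 54.1 RPKM in the Brpf1-null library and 16.9 RPKM in the wild-type library, 3.21-fold higher (3.08 to 3.34). Nop2, an rRNA methyltransferase, and Fbl (fibrillarin), which methylates rRNA, were 2.39-fold (2.23 to 2.57) and 2.33-fold higher (2.18 to 2.49). The NOC family members Noc3l and Noc4l were at 2.61 and 26.9 RPKM in Brpf1-null cells and at 3.27 and 27.6 RPKM in wild-type cells. Both lay within 1.5-fold like Cebpz (named after their values were seen). The summed level of the list, in which Npm1 weighs most, was 1642 RPKM in the Brpf1-null and 1834 RPKM in the wild-type library, opposite in direction to the median.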

How the data were processed

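RNA of LSK cells from fetal liver was sequenced from oligo-dT-primed libraries, each of about 10000 sorted cells per the labels' protocols. The first pair used 2 sequencer lanes and the second 6. Reads were aligned with TopHat to mm9, per the submitters' processing notes; no source used here gives the annotation, counting program or strand setting. RPKM values for pair 1 and FPKM values for pair 2 were deposited, per the file headers. All 20207 symbols matched between the tables, with 0 differing values in either genotype, so each genotype has 1 set of values, treated as 1 library in RPKM; it could be either pair or both merged. The authors also deposited a fold ratio of wild-type over mutant values and its log2, which run opposite to the direction used here and were not used.

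The design planned limma without covariates for 2 differing libraries per genotype, and a description with no test otherwise. With identical tables the description was made. Differences are log2 of RPKM with a pseudocount of 1, which understates low genes. A mean of at least 1 RPKM kept 9380 genes. Library sizes came from the spacing of low values. Their ratio came from 1203 genes under 0.3 RPKM, of which 40.1% gave ratios of whole reads up to 6 (1.91% with the ratio 5% off). Their size came from GENCODE M21 transcript lengths (GRCm38, not mm9, with 98.1% of symbols matched). At that size 43.4% of 357 genes with a single length gave whole reads in both libraries (6.38% with the size 5% off). Reads per gene use a protein-coding length that gave whole reads within 0.1 in both libraries, otherwise the longest one, so they are approximate. Analyses used Python 3.11.15, scipy 1.17.1 and statsmodels 0.14.6. Recovery of sizes, intervals and signs was tested on simulated reads of known transcript length, which leaves the choice of length untested.

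The members and the 15 other lists were chosen with earlier results of these data known. The text names Brpf1, all members and, per list, up to 5 kept genes with the largest absolute log2 difference, not all of which are described; other genes, which are marked, listed at 0 or, as Npm1, named for their weight in a sum, were chosen after their values were seen. RefSeq promoters were matched for 3 of 7 members.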

Additional observations from a re-analysis of the deposited data

How the results depend on the processing

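No paired analysis was possible because the tables of both pairs hold the same values, and for the same reason no library could be left out. The log2 differences of Cebpa, Cebpb, Cebpd, Cebpe, Cebpg and PU.1 kept their sign under pseudocounts of 0.1 and 5 RPKM, median centring, quantile normalization and removal of the GC trend, and that of Cebpz was -0.01 as deposited and 0.08 with the GC trend removed. With a pseudocount of 0.1 RPKM Cebpa was at 1.81. With a pseudocount of 5 RPKM Cebpa was at 0.75 and PU.1 at -0.37, which left 1 member higher and 0 lower past 1.5-fold. Removal of the GC trend left 1 member higher, with Cebpb at 0.56. A mean of at least 5 RPKM kept only Cebpg and Cebpz and gave 0 higher and 0 lower, and a 2-fold threshold 1 higher and 0 lower. Higher genes made up 59.9% of all kept genes past 1.5-fold as deposited and 52.3% after quantile normalization. The share was 48.7% with the GC trend removed and 44.4% after median centring. Median centring shifted the median of all kept genes by -0.11, from 0.04 to -0.07. All genes higher and lower past the threshold numbered 1323 and 884 as deposited, 388 and 325 at 2-fold, 554 and 393 with a pseudocount of 5 RPKM and 793 and 483 for genes averaging 5 RPKM or more. The 2-fold threshold left 8 of the PU.1-linked genes on the higher side. Over the 15 other lists, the 30 counts per setting moved by over 1.5 times in 10 with the 2-fold threshold, 8 with a mean of at least 5 RPKM, 8 with a pseudocount of 5 RPKM, 3 without the GC trend, 2 with median centring, 2 with no filter, 1 with a pseudocount of 0.1 RPKM and 0 with quantile normalization. Depth limits Cebpe most, at 8 Brpf1-null reads.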

Other observations

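The nearest kept protein-coding genes on either side of the members were higher or nearly level. Beside PU.1, Slc39a13, a zinc transporter gene, was at 3.05 RPKM in the Brpf1-null library and 2.10 RPKM in the wild-type library, and Madd, a regulator of Rab3 GTPases, was 1.81-fold higher (1.61 to 2.05), while PU.1 was lower. Beside Cebpb, Ptpn1, a tyrosine phosphatase gene, was at 11.3 RPKM in the Brpf1-null and 5.77 RPKM in the wild-type library, 1.96-fold higher (1.77 to 2.17), and Ube2v1 was 1.41-fold higher (1.37 to 1.46). Beside Cebpz, Eif2ak2, which encodes the double-stranded RNA sensor PKR, was at 3.97 RPKM in the Brpf1-null and 1.41 RPKM in the wild-type library, 2.82-fold higher (2.32 to 3.44), while 2410091C18Rik on the other side was at 16.8 and 17.6 RPKM in the same order. Beyond Cebpa and Cebpg, Gpatch1 was at 4.46 and Pepd at 39.7 RPKM in the Brpf1-null library, against 3.75 and 28.0 RPKM in the wild-type library. Beside Cebpe, Slc7a8, an amino acid transporter gene, was at 1.54 RPKM in the Brpf1-null and 0.755 RPKM in the wild-type library, 2.04-fold higher (1.53 to 2.75), while 1700123O20Rik on the other side was at 34.5 and 32.8 RPKM in the same order. Beside Cebpd, Fam128b was at 16.3 RPKM in the Brpf1-null and 12.2 RPKM in the wild-type library, and Yars2 at 4.77 and 4.99 RPKM in the same order. These neighbours were chosen after the values of the members were seen.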
